A study of Homo sapiens with 6 samples.

Results

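The clustered protocadherins were examined in 2 stable lines of LNCaP, a long-established cell line from a human prostate cancer. One line carried the empty retroviral pBabe vector with puromycin resistance (pBabe-vector), and the other carried the same vector with wild-type GNA13 cDNA (pBabe-GNA13). Both lines were kept under puromycin and cultured for 48 h after plating, and RNA was sequenced from 3 biological replicates of each. A single line stands for each condition, so an effect of GNA13 and a difference between the 2 lines cannot be told apart. The members were all genes of the count table whose symbol begins with PCDHA, PCDHB or PCDHG. They numbered 51 of 17297 genes, with 12 in PCDHA, 18 in PCDHB and 21 in PCDHG. The PCDHB members comprised 15 coding genes and 3 pseudogenes. The pseudogenes were PCDHB17 and PCDHB18, older symbols that RefSeq pairs with PCDHB17P and PCDHB18P, and PCDHB19P. The question was whether a higher level of PCDHB8 in pBabe-GNA13, already known from these data, was shared by the neighbouring genes of its cluster.

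Clustered protocadherins are single-pass cell adhesion proteins of the cadherin family with 6 extracellular cadherin repeats. The clustered genes lie in 3 tandem arrays, and their proteins form cis dimers that bind matching dimers on a facing cell. This recognition is best known from neurons, where each cell expresses its own combination of isoforms and tells its own branches from those of other cells. Each variable exon of PCDHA and PCDHG has its own promoter and is spliced to 3 constant exons that encode a shared cytoplasmic tail, whereas PCDHB genes are mostly single exons without such a tail. Choice among the promoters involves DNA methylation, the insulator protein CTCF and cohesin, and most promoters carry a short conserved element that contains the letters CGCT.

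By Gencode 44 on GRCh38 the members of the table spanned 726.8 kb of chromosome 5, from 140786136 to 141512977, and all were on the plus strand. PCDHB8 (ENSG00000120322) is a single exon of 2750 bases at 141177790-141180539. Its neighbours among the members were PCDHB6, PCDHB17 and PCDHB7 on the 5′ side, and PCDHB16, PCDHB9 and PCDHB10 on the 3′ side. Of 59 cluster genes annotated in Gencode 44, 8 were not analysed here, namely PCDHA8, PCDHA9, PCDHA13, PCDHA14, PCDHB1, PCDHGA11, PCDHGB8P and PCDHGB9P.

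The promoters of the coding PCDHB genes shared a short word, and it is shown because the comparison turns on genes that sit side by side with promoters of one kind. RefSeq promoter sequences (GRCh38.p14, 250 bases before to 50 after the annotated start) were found for 43 of 51 members. PCDHA3, PCDHB6, PCDHB11, PCDHB17, PCDHB18, PCDHB19P, PCDHGA12 and PCDHGC5 had no entry. Searched on both strands, 2 overlapping 8-base words were found in 13 of 13 PCDHB promoters, GTGGCGCT (reverse complement AGCGCCAC) and GGTGGCGC, and the one rarer among all promoters, GTGGCGCT, is used here. It was in 0 of 11 PCDHA promoters, in 0 of 19 PCDHG promoters and in 1.15% of the 35116 promoters of the table, where 2.23% held GGTGGCGC. The word was chosen because it was common in these promoters, so its share among them is a description. In the following plus-strand sequences of GRCh38 chromosome 5 the capitals mark the word, for PCDHB8, for both genes nearest to it, for PCDHB13 and PCDHB15 downstream, and for PCDHB2 and PCDHB5 upstream.
PCDHB2: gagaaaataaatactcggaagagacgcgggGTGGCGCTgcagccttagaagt
PCDHB5: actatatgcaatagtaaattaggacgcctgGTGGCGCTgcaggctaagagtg
PCDHB7: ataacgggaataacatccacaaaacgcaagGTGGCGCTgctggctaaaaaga
PCDHB8: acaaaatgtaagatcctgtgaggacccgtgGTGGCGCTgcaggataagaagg
PCDHB16: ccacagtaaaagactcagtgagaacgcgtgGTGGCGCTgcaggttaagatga
PCDHB13: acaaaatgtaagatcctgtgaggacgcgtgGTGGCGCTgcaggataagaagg
PCDHB15: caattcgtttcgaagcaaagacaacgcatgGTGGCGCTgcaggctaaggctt
The PCDHB8 sequence lies at chr5:141177759-141177810 and that of PCDHB13 at chr5:141213847-141213898. The word began 1 base before the annotated start of PCDHB8, 42 bases before that of PCDHB13 and between 15 and 83 bases before those of the other PCDHB genes.

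PCDHB13 lies 36.1 kb downstream of PCDHB8 and was its closest relative. The promoter entries of both genes aligned over 259 bases without a gap and with 93.82% identity, whereas the longest alignment of PCDHB8 with any other PCDHB promoter covered 101 bases. The upstream stretches of that alignment are printed for both genes, with the 16 differing bases in capitals.
PCDHB8: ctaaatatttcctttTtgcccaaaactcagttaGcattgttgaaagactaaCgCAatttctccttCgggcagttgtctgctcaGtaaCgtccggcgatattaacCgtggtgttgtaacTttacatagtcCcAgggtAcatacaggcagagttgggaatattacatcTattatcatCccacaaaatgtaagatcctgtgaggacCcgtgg
PCDHB13: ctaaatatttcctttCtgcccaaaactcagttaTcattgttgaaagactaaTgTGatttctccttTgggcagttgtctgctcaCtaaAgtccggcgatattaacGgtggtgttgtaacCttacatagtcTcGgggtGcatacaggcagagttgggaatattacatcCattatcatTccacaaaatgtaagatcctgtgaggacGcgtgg
These 209 bases are chr5:141177581-141177789 for PCDHB8 and chr5:141213669-141213877 for PCDHB13. The transcripts were also alike, with 94.31% identity over 2634 aligned bases and an identical run of 464 bases. Against the other PCDHB members the identity of the PCDHB8 transcript was 77.74% (PCDHB18) to 81.98% (PCDHB2). Of the 150-base windows of PCDHB8, the length of 1 read, 14.264% stood unchanged in PCDHB13. A single read from those windows cannot be assigned to one gene by its own sequence. Reads were paired, and how often the mate lay outside such a window was not measured. Whether reads that match both genes were counted is not given in the sources used here, nor whether counting used strand. Gencode 44 places exons of other genes across exons of PCDHB2, PCDHB3, PCDHB5, PCDHB6, PCDHB17, PCDHB7, PCDHB8 and PCDHB16. The same holds for PCDHB9, PCDHB10, PCDHB11, PCDHB14, PCDHB19P and PCDHB15, so reads of other genes may be mixed in these counts.

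GNA13, which encodes the G protein subunit Gα13 and was the gene introduced, was read 30637, 30171 and 25704 times in the std library, replicate 2 and replicate 3 of pBabe-GNA13. It was read 3215, 2350 and 2098 times in replicates 1, 2 and 3 of pBabe-vector, a log2 fold change of 3.54 ± 0.12 (SE). Library totals were 33002160 to 40628970 counts, and 3 counts in a library, taken as the floor, equal 0.0715 to 0.0935 CPM, the unit of reads scaled to a common library size by TMM. The pBabe-GNA13 library tagged std and pBabe-vector replicate 1, which has the same tag, form the std pair, and replicates 2 and 3 form pairs by number. The edgeR quasi-likelihood test over all genes, without the pairing, was the main comparison. The same test blocked by pair is printed where it changed a call. A gene was called at a Benjamini-Hochberg adjusted p under 0.05.

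PCDHB8 was the only member called in the comparison without the block, and it was higher in pBabe-GNA13. It was read 234, 230 and 177 times in the std library, replicate 2 and replicate 3 of pBabe-GNA13. The counts in replicates 1, 2 and 3 of pBabe-vector were 84, 63 and 55. Every pBabe-GNA13 library thus had more than 2 times the reads of every pBabe-vector library, and the groups did not overlap. Means were 6.06 ± 0.826 CPM (SD, n = 3) in pBabe-GNA13 and 1.86 ± 0.145 CPM (SD, n = 3) in the vector line. This was a log2 fold change of 1.70 ± 0.19 (SE) with an adjusted p of 0.032 by edgeR. Within the std, replicate 2 and replicate 3 pairs the log2 ratio was 1.62, 1.83 and 1.56. By exact permutation of the 3 and 3 libraries the two-sided p was 0.1, the smallest possible. The call was lost in limma-trend (adjusted p = 0.0686) and when any library but pBabe-GNA13 replicate 3 was left out, with adjusted p between 0.074 and 0.239 in edgeR and log2 fold changes of 1.61 to 1.76.

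The call of 1 of 51 members compares with 0.116% of all genes called higher and 0.0231% called lower. That member was PCDHB8, whose rise was known beforehand, so this comparison is a description and no evidence of an excess. Except for the 0 of limma-trend, the counts of higher members that follow include PCDHB8. With the pair as a block, 14 members were called higher and 1 lower, against 9.32% of all genes called higher and 10.4% called lower. The members called higher were 11 of the 15 coding PCDHB genes and 3 of the 21 PCDHG genes, and no PCDHA gene and no PCDHB pseudogene was called in either direction. Without reference to a model, 17 members were higher in every pBabe-GNA13 library than in every pBabe-vector library, and 1 was lower. Those shares were 7.30% and 6.79% over all genes. At an unadjusted p under 0.05 without the block, 15 members were higher and 1 lower, against 4.78% and 3.68% of all genes. DESeq2 called 4 members, all higher (PCDHB8, PCDHB16, PCDHB13 and PCDHB15), against 1.03% of the genes it gave an adjusted p. Limma-trend with the block called 3 members, all higher (PCDHB8, PCDHB13 and PCDHB15), against 1.47% of all genes, and limma-trend without it called 0. At an unadjusted p under 0.05 limma-trend had 17 members higher and 1 lower, against 5.39% and 4.32% of all genes.

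**Figure D1:**
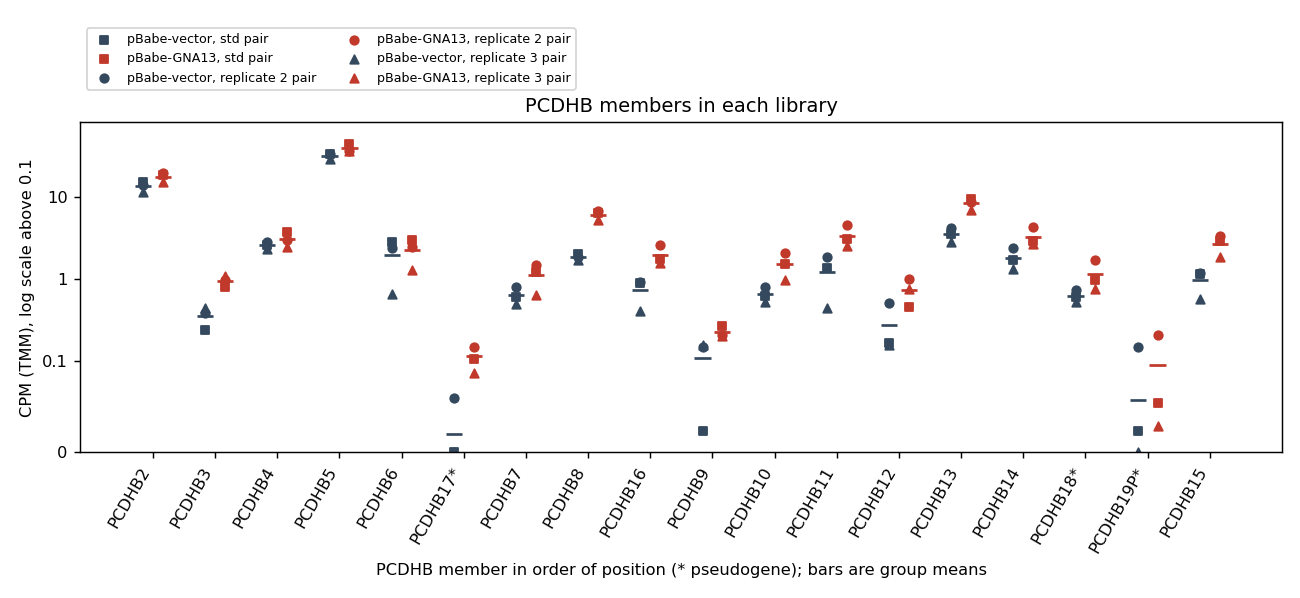
Each of the 18 PCDHB members in the order of their position, in CPM on an axis that is logarithmic above 0.1, with 1 point per library (blue for pBabe-vector, red for pBabe-GNA13, the shape giving the library pair) and a bar at the group mean. PCDHB8 stands at 6.06 against 1.86 CPM, and each of the 15 coding genes has a higher mean in pBabe-GNA13.

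Of the 3 members on either side of PCDHB8, none on the 5′ side and 2 on the 3′ side were called with the block, and none without it. On the 5′ side, PCDHB7 begins 5.1 kb upstream. Its counts were 45, 50 and 22 in the std library, replicate 2 and replicate 3 of pBabe-GNA13 and 25, 27 and 16 in replicates 1, 2 and 3 of pBabe-vector, so that pBabe-GNA13 replicate 3 lay below 2 vector libraries in reads. Its log2 fold change was 0.81 ± 0.38 (SE) and it was called in neither fit (adjusted p = 0.64 without and 0.065 with the block by edgeR). The pseudogene PCDHB17 had 4, 5 and 3 reads in pBabe-GNA13 and 0, 2 and 0 in pBabe-vector, at or near the floor. PCDHB6 had 112, 82 and 44 reads in pBabe-GNA13 and 117, 80 and 21 in pBabe-vector, and the groups overlapped. Its log2 fold change of 0.19 ± 0.52 (SE) turned to −0.21 without pBabe-vector replicate 3 and to −0.07 without the pBabe-GNA13 std library.

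On the 3′ side, PCDHB16 begins 4.6 kb downstream of the PCDHB8 start. It was read 66, 88 and 53 times in the std library, replicate 2 and replicate 3 of pBabe-GNA13 and 37, 31 and 13 times in replicates 1, 2 and 3 of pBabe-vector. No library of one group fell within the other, and the log2 fold change was 1.40 ± 0.36 (SE), with an adjusted p of 0.31 without and 0.00018 with the block by edgeR. PCDHB9 was read 10, 7 and 7 times in pBabe-GNA13 and 1, 5 and 5 times in pBabe-vector, and it was called in neither fit (adjusted p = 0.33 with the block by edgeR). PCDHB10 was read 56, 70 and 33 times in pBabe-GNA13 and 26, 27 and 17 times in pBabe-vector. The groups of PCDHB10 did not overlap, its log2 fold change was 1.21 ± 0.35 (SE), and its adjusted p was 0.37 without and 0.0022 with the block by edgeR. Of all coding PCDHB genes, PCDHB10 shared the most 150-base windows with other loci (17.928%, first with PCDHB9), and PCDHB16 shared 5.933%, all with PCDHB10.

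Further 3′, PCDHB11, PCDHB12, PCDHB13, PCDHB14 and PCDHB15 were each called higher with the block and not without it. PCDHB13, the close relative of PCDHB8, was read 349, 297 and 237 times in the std library, replicate 2 and replicate 3 of pBabe-GNA13, and 148, 142 and 90 times in replicates 1, 2 and 3 of pBabe-vector. Its log2 fold change was 1.24 ± 0.21 (SE), with an adjusted p of 0.12 without and 4.3e-08 with the block by edgeR. PCDHB15, the last gene of the array, was read 107, 112 and 63 times in pBabe-GNA13 and 48, 40 and 18 times in pBabe-vector. Both genes had non-overlapping groups. For PCDHB15 the log2 fold change was 1.46 ± 0.35 (SE), with an adjusted p of 0.29 without and 1.3e-05 with the block by edgeR. Just 3.009% of its 150-base windows were shared with other loci, against 16.186% for PCDHB8 and 10.485% for PCDHB13.

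PCDHB11 was read 113, 153 and 87 times in pBabe-GNA13 and 57, 63 and 14 times in pBabe-vector, and replicate 3 was the lowest library of each line. PCDHB14 was read 108, 144 and 92 times in pBabe-GNA13 and 72, 80 and 42 times in pBabe-vector. PCDHB12 was read 17, 34 and 26 times in pBabe-GNA13 and 7, 17 and 5 times in pBabe-vector. The first 2 of these genes had non-overlapping groups, whereas PCDHB12 in the pBabe-GNA13 std library equalled pBabe-vector replicate 2 in reads. Their log2 fold changes were 1.45 ± 0.47, 0.86 ± 0.29 and 1.42 ± 0.54 (SE), and their adjusted p values with the block by edgeR were 1.2e-05, 0.0009 and 0.015. PCDHB12 lost the call of the blocked fit when a pair was left out (adjusted p up to 0.145).

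At the 5′ end of the array, PCDHB5 and PCDHB2 had the most reads of all PCDHB genes and small fold changes. PCDHB5 was read 1646, 1216 and 1250 times in the std library, replicate 2 and replicate 3 of pBabe-GNA13 and 1376, 1125 and 929 times in replicates 1, 2 and 3 of pBabe-vector, a level of 38.7 ± 4.65 against 31.7 ± 2.36 CPM (SD, n = 3). Its log2 fold change was 0.29 ± 0.12 (SE), with an adjusted p of 0.58 without and 0.0022 with the block by edgeR. PCDHB2 was read 680, 666 and 516 times in pBabe-GNA13 and 629, 466 and 365 times in pBabe-vector. Scaled to library size, neither gene overlapped between the groups. The log2 fold change of PCDHB2 was 0.39 ± 0.16 (SE), with an adjusted p of 0.56 without and 0.0012 with the block by edgeR.

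PCDHB3, between those genes, was low and had a larger fold change. It was read 30, 33 and 37 times in pBabe-GNA13 and 10, 13 and 14 times in pBabe-vector, with a log2 fold change of 1.43 ± 0.34 (SE) and an adjusted p of 0.28 without and 0.0044 with the block by edgeR. PCDHB4 was read 84 to 137 times in pBabe-GNA13 and 74 to 108 times in pBabe-vector, overlapped between the groups and was called in neither fit (log2 fold change 0.25 ± 0.21, SE). The 6 coding genes 5′ of PCDHB8 gave a median of 0.34 for the log2 fold change and 3 calls under the block, and the 8 coding genes 3′ of it gave a median of 1.32 and 7 calls. The median over all genes above the floor was −0.0087. The split was not clean. PCDHB3 had the largest fold change on the 5′ side, and PCDHB7 (0.81) was close to PCDHB14 (0.86), the lowest of the 3′ genes. No test compared the sides.

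**Figure D2:**
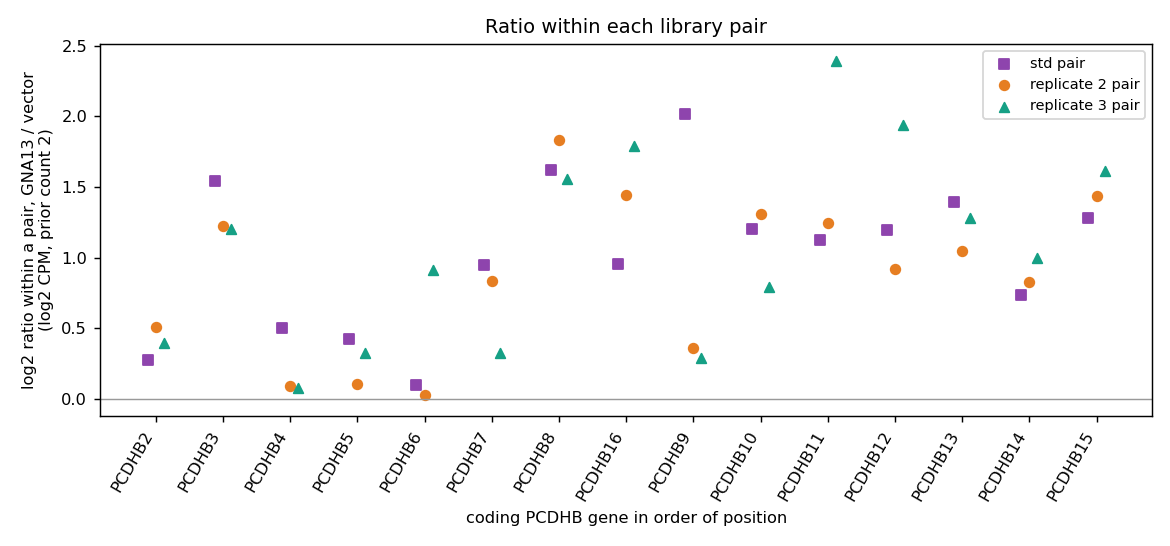
The log2 ratio of pBabe-GNA13 to pBabe-vector within each of the 3 library pairs (log2 CPM with a prior count of 2) for the 15 coding PCDHB genes in the order of their position. All 45 points lie above 0, and those of PCDHB8 lie between 1.56 and 1.83.

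All 15 coding PCDHB genes were higher in pBabe-GNA13 in 3 of 3 pairs, where 22.6% of all genes were higher in 3 of 3. The 3 pseudogenes were also higher in 3 of 3 pairs but were called in neither unfiltered fit. PCDHB18, the only one of them well above the floor, was read 36, 57 and 26 times in pBabe-GNA13 and 25, 25 and 17 times in pBabe-vector, with an adjusted p of 0.053 with the block by edgeR, and 0.047 with the block after the filterByExpr filter on low counts. Of the 15 blocked calls, those of PCDHB2, PCDHB3, PCDHB5, PCDHB8, PCDHB16, PCDHB10, PCDHB11, PCDHB13, PCDHB14 and PCDHB15 remained when any one pair was left out. Replicate 3 was the lowest pBabe-vector library for 13 of the 15 coding PCDHB genes, against 39.8% of all genes, and the lowest pBabe-GNA13 library for 12 of the 15, against 36.4% of all genes. Without the replicate 3 pair, 10 members were called with the block.

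PCDHB8 was chosen with its rise known, so its share of reads and its ratios to other members are descriptions. Among the coding PCDHB genes, PCDHB8 took a larger share of the reads in pBabe-GNA13. It made up 6.31%, 7.01% and 6.49% of the reads of the 15 coding PCDHB genes in the std library, replicate 2 and replicate 3 of pBabe-GNA13. In replicates 1, 2 and 3 of pBabe-vector the share was 3.06%, 2.77% and 3.28%, and the groups did not overlap. The log2 ratio of PCDHB8 to each of the 15 PCDHB members that averaged over 3 counts in pBabe-vector was then compared between the lines. For 8 of them (PCDHB2, PCDHB4, PCDHB5, PCDHB7, PCDHB10, PCDHB13, PCDHB14 and PCDHB18) the ratio was higher in every pBabe-GNA13 library. Of all other genes with over 3 counts in pBabe-vector, 95.9% gave such a higher ratio. The difference in log2 ratio was 1.38 for PCDHB5, 0.96 for PCDHB7 and 0.43 for PCDHB13, each with an exact two-sided permutation p of 0.1, the smallest possible, and 0.1875 after adjustment over the 15 comparisons. For PCDHB3, PCDHB6, PCDHB16, PCDHB9, PCDHB11, PCDHB12 and PCDHB15 the ratios overlapped. The difference was 0.27 for PCDHB16 and 0.08 for PCDHB11 (exact permutation p of 0.5 and 0.9), which does not show that they changed alike.

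The PCDHB members were ordered by reads per kilobase of exon not shared with another member, with PCDHA and PCDHG left out. In pBabe-vector the order began with PCDHB5 (9.28 CPM per kb), PCDHB2 (3.26), PCDHB13 (0.693) and PCDHB8 (0.676). In pBabe-GNA13 it was PCDHB5 (11.4 CPM per kb), PCDHB2 (4.29), PCDHB8 (2.20) and PCDHB13 (1.64). In pBabe-vector, PCDHB13, PCDHB8 and PCDHB4 (0.671 CPM per kb) did not differ beyond the spread of their libraries.

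The PCDHG genes had a smaller median difference than the coding PCDHB genes, whose median was 1.21. Their median log2 fold change was 0.22 over all 21 members, 3 were called higher with the block and 1 lower, and none was called without it (2 higher and 1 lower at an unadjusted p under 0.05, against 4.78% and 3.68% of all genes). The 14.3% of PCDHG genes called higher with the block compares with 9.32% of all genes, and the single lower call with 10.4%. PCDHGC3, a C-type isoform at the 3′ end of the array, was read 664, 578 and 637 times in the std library, replicate 2 and replicate 3 of pBabe-GNA13 and 613, 549 and 465 times in replicates 1, 2 and 3 of pBabe-vector. Its log2 fold change was 0.23 ± 0.12 (SE), with an adjusted p of 0.68 without and 0.0496 with the block by edgeR. PCDHGB5 was read 364, 329 and 352 times in pBabe-GNA13 and 342, 253 and 240 times in pBabe-vector. Scaled to library size both genes had non-overlapping groups, and the log2 fold change of PCDHGB5 was 0.36 ± 0.13 (SE).

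PCDHGA1, the first gene of the array, was read 106, 149 and 118 times in pBabe-GNA13 and 99, 82 and 70 times in pBabe-vector, with a log2 fold change of 0.61 ± 0.21 (SE). PCDHGA8 was the only member called lower. It was read 52, 68 and 51 times in pBabe-GNA13 and 87, 108 and 75 times in pBabe-vector, with a log2 fold change of −0.64 ± 0.26 (SE). Its groups did not overlap. With the block, edgeR gave adjusted p values of 0.014 for PCDHGB5, 0.016 for PCDHGA1 and 0.02 for PCDHGA8. Each of these 4 PCDHG calls failed on leaving out at least 1 pair, where adjusted p reached 0.127, 0.156 and 0.102 for PCDHGB5, PCDHGA1 and PCDHGA8 and 0.317 for PCDHGC3. PCDHGB1, among the PCDHG genes with the most reads per unshared kilobase, was read 169, 168 and 150 times in pBabe-GNA13 and 184, 164 and 111 times in pBabe-vector, and the groups overlapped. Reads in the constant exons that PCDHG members share cannot be tied to one gene.

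PCDHA was hardly expressed. Its 12 members had between 2 and 79 reads each over all 6 libraries, and 9 of them did not exceed a mean of 3 reads in either line. PCDHAC2, a C-type isoform, had 9, 22 and 17 reads in pBabe-GNA13 and 11, 14 and 6 in pBabe-vector. PCDHA1 had 3, 7 and 7 reads in pBabe-GNA13 and 1, 2 and 1 in pBabe-vector. PCDHA6 had 4, 3 and 2 reads in pBabe-GNA13 and 0, 2 and 0 in pBabe-vector. None was called by edgeR in either fit, 1 (PCDHA1) had an unadjusted p under 0.05 without the block, and differences of individual PCDHA genes were not detectable at this depth.

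**Figure D3:**
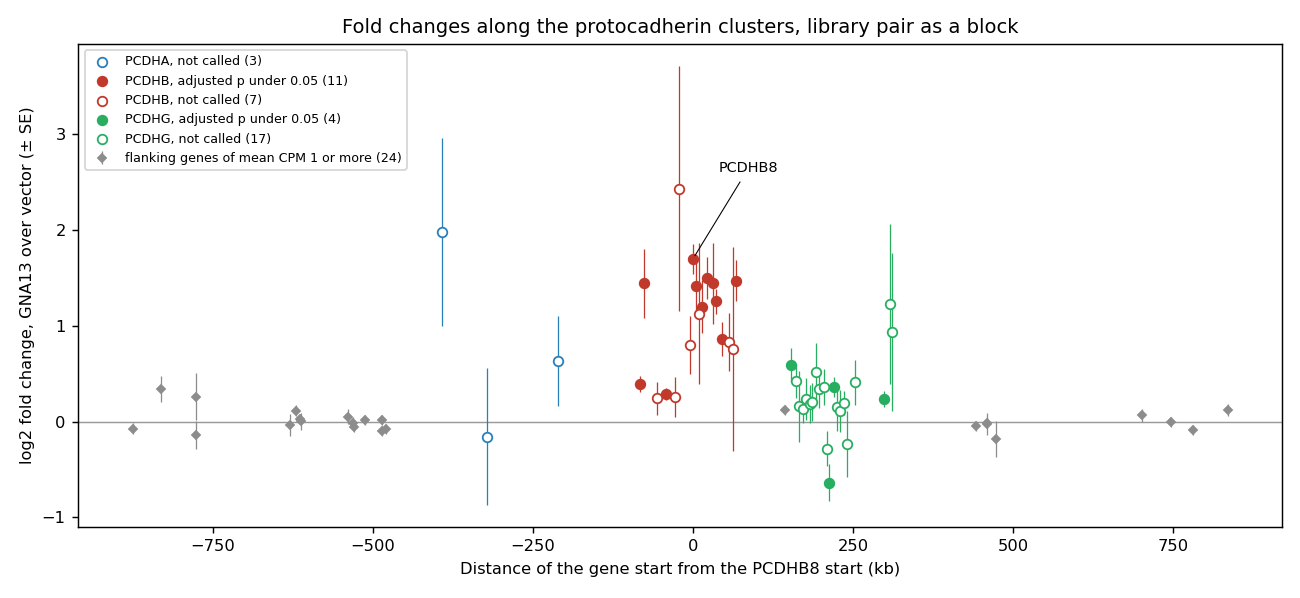
The log2 fold change with the library pair as a block (± SE) against the distance of each gene's start from that of PCDHB8 in kb, for the 42 members with a mean over 3 counts in at least 1 line (coloured, filled where adjusted p is under 0.05) and 24 flanking genes of mean CPM 1 or more (grey). The filled PCDHB points lie between 0.29 and 1.70, whereas no flanking gene is called.

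None of the genes around the clusters was called. Of 27 genes of the table within 500 kb of the clusters or between them, none was called by edgeR without or with the block. None was called by DESeq2 or by limma-trend either, and 0 had an unadjusted p under 0.05 in edgeR without the block. Over all genes, 9.32% were called higher and 10.4% lower with the block, and 4.78% and 3.68% had such an unadjusted p. The median log2 fold change of the 27 genes was 0.011. ZMAT2, the nearest gene on the PCDHA side, was read 3347, 2578 and 3048 times in the std library, replicate 2 and replicate 3 of pBabe-GNA13 and 3901, 2830 and 2897 times in replicates 1, 2 and 3 of pBabe-vector (log2 fold change −0.07 ± 0.10, SE). TAF7, a subunit of the general transcription factor TFIID that lies between PCDHB and PCDHG, was read 5750, 5908 and 5300 times in pBabe-GNA13 and 6342, 5175 and 4491 times in pBabe-vector (0.12 ± 0.10, SE). DIAPH1, an actin-nucleating formin just beyond PCDHG, was read 8547, 6744 and 9842 times in pBabe-GNA13 and 9097, 7145 and 10077 times in pBabe-vector (−0.06 ± 0.20, SE). ZMAT2 and DIAPH1 overlapped between the lines. Scaled to library size TAF7 was higher in every pBabe-GNA13 library, as were CD14 and PCDH12, so that 3 of the 27 flanking genes did not overlap (11.1%, against 7.30% of all genes). The median over 524 other genes of chromosome 5 with a mean of at least 1 CPM in pBabe-vector was −0.04.

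**Figure D4:**
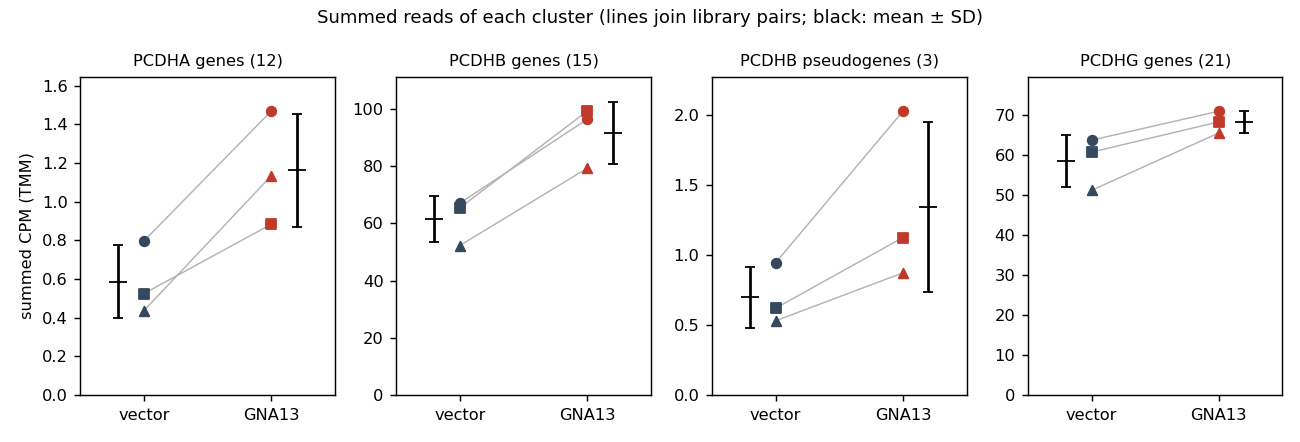
Summed CPM of each cluster per library, with lines joining the library pairs and the mean ± SD in black. The PCDHB genes stand at 91.7 against 61.6 CPM and the PCDHG genes at 68.2 against 58.5 CPM.

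Summed over each cluster, the 15 PCDHB genes held 99.3, 96.5 and 79.3 CPM in the std library, replicate 2 and replicate 3 of pBabe-GNA13 and 65.5, 67.1 and 52.3 CPM in replicates 1, 2 and 3 of pBabe-vector, a ratio of means of 1.49. The 21 PCDHG genes held 68.3, 71.0 and 65.5 CPM in pBabe-GNA13 and 60.7, 63.7 and 51.2 CPM in pBabe-vector, a ratio of 1.17. The sums of both clusters did not overlap between the lines. PCDHB5 and PCDHB2 made up most of the PCDHB sum. The 12 PCDHA genes together held 33, 50 and 39 reads in pBabe-GNA13 and 22, 27 and 14 in pBabe-vector. From these few reads the ratio of CPM means was 1.98, and the PCDHA sums did not overlap either. The 3 pseudogenes held 42, 69 and 30 against 26, 32 and 17 reads, a ratio of 1.92, and their sums overlapped.

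Among protocadherins outside the clusters, 6 of 12 listed were in the table. None was called in either fit of edgeR, by DESeq2 or by limma-trend, with 0 at an unadjusted p under 0.05. Over all genes, 9.32% were called higher and 10.4% lower by edgeR with the block. PCDH1, the most abundant, was read 1197, 999 and 930 times in pBabe-GNA13 and 1256, 908 and 890 times in pBabe-vector. PCDH12, next by CPM, was read 29, 42 and 30 times in pBabe-GNA13 and 27, 21 and 24 times in pBabe-vector. PCDH1 overlapped between the lines. PCDH12 was higher in every pBabe-GNA13 library when scaled to library size, with a log2 fold change of 0.52 ± 0.29 (SE) and an adjusted p of 0.75 without and 0.30 with the block by edgeR.

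Among 30 regulators of the clusters and of chromatin, 1 was called without the block and 5 higher (16.7%) and 2 lower with it, against 9.32% and 10.4% of all genes with the block, and the median log2 fold change of the list was 0.04. ATF7IP2, a binding partner of the methyltransferase SETDB1, was read 97, 59 and 55 times in the std library, replicate 2 and replicate 3 of pBabe-GNA13 and 4, 3 and 1 times in replicates 1, 2 and 3 of pBabe-vector, with adjusted p values of 0.016 without and 1.4e-09 with the block by edgeR. Its relative ATF7IP differed by 0.18 ± 0.11 on the log2 scale (SE, adjusted p = 0.023 with the block by edgeR). TET3, which oxidises methylcytosine, was read 2447, 2208 and 1898 times in pBabe-GNA13 and 2151, 1555 and 1316 times in pBabe-vector. The de novo DNA methyltransferases were called in opposite directions with the block, DNMT3A higher (log2 fold change 0.36 ± 0.38, SE, without the block) and DNMT3B lower (−0.43 ± 0.14, SE). DNMT3B was read 440, 366 and 412 times in pBabe-GNA13 and 750, 488 and 458 times in pBabe-vector. EHMT1, a histone H3 lysine methyltransferase, was higher (0.22 ± 0.09, SE), and LBR, which tethers heterochromatin to the nuclear lamina, was lower (−0.44 ± 0.12, SE), both called only with the block. CTCF (0.05 ± 0.11, SE), the cohesin subunit RAD21 (0.04 ± 0.12, SE), SMCHD1, which silences clustered protocadherins in mice (−0.01 ± 0.12, SE), and the corepressor TRIM28 (−0.11 ± 0.17, SE) were called in neither fit.

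Of 19 intracellular partners and shedding enzymes, none was called without the block by edgeR, with 0 at an unadjusted p under 0.05. Without the block, 0.116% of all genes were called higher and 0.0231% lower. With the block 1 partner was called lower, against 10.4% of all genes called lower and 9.32% higher, so this call does not set the list apart. The partner called was PTK2B, a focal adhesion kinase relative that binds protocadherin tails. It was read 3616, 3212 and 4237 times in pBabe-GNA13 and 4719, 4047 and 4517 times in pBabe-vector (log2 fold change −0.25 ± 0.14, SE, adjusted p = 0.001 with the block by edgeR). The WAVE complex members WASF2 (0.03 ± 0.10, SE) and NCKAP1 (−0.04 ± 0.10, SE), the most abundant of the list, were called in neither fit.

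The libraries carried the markers of LNCaP. All 10 luminal markers were read in every library, with a sum of 6551 to 9318 CPM in pBabe-GNA13 and 5646 to 8341 CPM in pBabe-vector, and with the block 5 were called higher (EPCAM, KLK2, KLK3, KRT8 and KRT18). Of 13 neural and neuroendocrine markers, 9 were in the table, with sums of 47.6 to 71.8 CPM against 56.3 to 83.6 CPM. With the block SOX10 was called higher at 12, 3 and 23 reads against 1, 2 and 2, and SYP and ENO2 were called lower. Of 9 stromal and mesenchymal markers, 8 were in the table, with sums of 400 to 524 CPM against 283 to 427 CPM, nearly all from FN1. VIM, FN1, COL1A2 and COL3A1 were called higher with the block, and COL1A2 had 96, 0 and 87 reads in pBabe-GNA13 and 2, 0 and 3 in pBabe-vector. The blocked calls in these lists compare with 9.32% of all genes called higher and 10.4% lower. OLIG2, GFAP, DCN and LUM stayed at 11 or fewer reads in each library. In the replicate 2 pair COL1A2 was at 0 in both libraries, and the PCDHB8 ratio was 1.83 on the log2 scale. The other called stromal markers were read in that pair, at 12873 (pBabe-GNA13) and 9966 (pBabe-vector) reads for FN1, 139 and 132 for VIM, and 8 and 7 for COL3A1. The part of any marker change in the PCDHB result was not tested. Fewer cells with a transcript and less RNA per cell cannot be told apart in bulk RNA.

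Over the 6 libraries, the genes whose log2 CPM followed PCDHB8 most closely by Pearson's r, among 14058 genes with a mean of at least 1 CPM, were PPM1H (0.995), GNA13 (0.994), APOBEC3F (0.993), NLGN4X (0.992) and SSH1 (0.992). None of these lies on chromosome 5. Among the members, r with PCDHB8 was highest for PCDHB13 (0.970), PCDHGB5 (0.948) and PCDHB15 (0.925) and lowest for PCDHGA8 (−0.758). These values describe 6 libraries that share the difference between the lines.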

How the data were processed

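RNA from 3 pBabe-GNA13 and 3 pBabe-vector replicates was sequenced by the authors as paired-end reads of 150 nucleotides. According to the study's methods and processing notes, the authors checked reads with FastQC 0.11.7, aligned them with STAR to Gencode 38 and aggregated them with featureCounts. The table they deposited holds read counts, in whole numbers, for each gene symbol. The filter that led to 17297 genes and the settings for strand and multiply mapped reads are not given in the sources used here. All 6 columns were used. The heading of the pBabe-GNA13 library tagged std repeats the number 2, so it was tied to its line only. Libraries of a line differed beyond sampling noise, with a mean chi-square per gene of 73.5 to 117.

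Library totals of 33002160 to 40628970 counts put the floor of 3 counts at 0.0715 to 0.0935 CPM, a limit that covers counting error only. Counts were scaled by TMM, not filtered, and tested over all genes by the quasi-likelihood F-test (edgeR 4.0.16 in R 4.3.3). Log2 CPM used a prior count of 2. The SE was the fold change divided by the square root of the F statistic. Same-pair deviations from the line means correlated over 12778 genes (r = 0.659, 0.807 and 0.888 in the std, replicate 2 and replicate 3 pairs, against −0.736 to 0.125 for libraries of different pairs). The block was therefore built from these pairs, whereas the main comparison left the pairing out. Alternatives were the block, DESeq2 1.42.0 and its size factors, limma-trend (limma 3.58.1), filterByExpr, leaving out libraries or pairs, and centring on chromosome 5. The blocked limma-trend and filterByExpr fits were chosen once the data were known. Positions came from Gencode 44 and alignments were made with Biopython 1.88.

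Per-library values are given for PCDHB8, the 3 members on each side and members called in either edgeR fit. They are also given for the 3 members of each cluster with the most reads per unshared kilobase and the nearest flanking genes. The named list members include those called and the 2 most abundant of the regulators, partners and protocadherins outside the clusters. Per-library values of list members are limited to PCDH1, PCDH12 and some called members. PCDHB4, PCDHB18, CTCF and SMCHD1 were added after their values were seen. The members and gene lists were chosen with earlier results of these data known. Among those results was the rise of PCDHB8, so tests of PCDHB8 here are not independent of that choice. Replicates come from 1 line per condition, so p-values measure the spread between cultures of that line.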

Additional observations from a re-analysis of the deposited data

How the results depend on the processing

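The number of members called rose from 1 to 15 with the replicate block, 15 with filterByExpr and the block (PCDHB18 gained and PCDHGC3 lost), 4 with DESeq2 and 3 with limma-trend and the block, and fell to 0 with limma-trend. It was 1 with DESeq2 size factors and with filterByExpr, and 0 to 1 when a library was left out. With the block and a pair left out it was 10 to 15. PCDHB8 kept its direction in every fit, with a log2 fold change of 1.61 to 1.81 when a library was left out and 1.67 in limma-trend, where its call was lost. Centred on chromosome 5 it was 1.74. PCDHB6 ranged from −0.21 to 0.56 and PCDHGB1 from −0.0019 to 0.23 when a library was left out, and no other member with values in every library, nor PCDHB4 or PCDHB18, changed direction in any alternative run. Among regulators, 7 were called with the block, 9 with filterByExpr and the block, 2 with limma-trend and the block, 0 with limma-trend and 0 to 1 when a library was left out. Of the partners 1 was called with the block and 1 with filterByExpr and the block. The flanking genes called with the block and a pair left out numbered 0 to 1 (TAF7 without the std pair, GNPDA1 without the replicate 3 pair). The ratio of cluster sums was 1.38 to 1.59 for PCDHB genes and 1.43 to 2.33 for PCDHB pseudogenes when a library was left out. The cause of these changes was not tested. PCDHA, PCDHB17, PCDHB19P and PCDHB9 had at most 22 reads in any library, which limits what could be detected.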
